A study of Mus musculus with 30 samples.

Results

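Collagen genes were followed across the terminal ileum and the lung of mice that overexpress the cytokine TL1A. They were taken as every row of the deposited count tables whose symbol reads Col, a number, a and a number, which gave 44 genes of the 24062 symbols in each table. All 44 symbols were found as genes in the GENCODE annotation of GRCm38. The mice had the C57bl/6 strain background. In the group labelled Mem, TL1A restricted to the membrane (Delta 69-93) was overexpressed. In Mem+Sol both the membrane bound and the soluble forms were overexpressed. The controls are labelled WT, yet the same label speaks of TL1A driven by the CD2 promoter, a promoter active in lymphocytes, and no label gives ages. In the ileum there were 5 WT (1 female, 4 male), 5 Mem (2 female, 3 male) and 6 Mem+Sol libraries (3 of each sex), all sequenced in batch 3. In the lung there were 5 WT (2 female, 3 male), 5 Mem (3 female, 2 male) and 4 Mem+Sol libraries (3 female, 1 male), of which batch 1 held 3, 3 and 2 and batch 2 held 2 of each.

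Collagens are built from 3 chains wound into a triple helix. The fibrillar collagens (types I, II, III, V, XI, XXIV and XXVII) form or seed the tensile fibres of connective tissue. Type IV collagen makes the sheet of basement membranes, and type VI forms beaded filaments around cells. Other classes sit on fibrils, span cell membranes or form short networks. In the gut wall and lung most fibrillar collagen is made by fibroblasts and smooth muscle, while endothelium, epithelium and muscle contribute basement membrane chains.

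Total counts per library ran, in M (mega) counts, from 4.30 to 13.2 in WT ileum, 10.6 to 36.1 in transgenic ileum and 22.3 to 39.1 in the lung, so the WT ileum libraries were the shallowest. Sex-linked transcripts matched the labelled sex in 30 of 30 libraries. The ileum markers Vil1, Fabp6, Slc10a2 and Lct summed to 0.591 to 1.8 CPM (counts scaled to a common library size) in the lung libraries, and the lung markers Sftpc, Sftpb, Scgb1a1 and Ager to 1.47 to 5.18 CPM in the ileum libraries. The transcript of TL1A itself, Tnfsf15, was at 1.83 to 7.25 CPM in WT ileum, 3.64 to 5.42 in Mem ileum and 4.55 to 10.2 in Mem+Sol ileum, which overlap. In the lung it was at 4.49 to 9.92, 20.2 to 24.5 and 61.5 to 97.9 CPM, without overlap. On a principal component analysis of all genes, ileum Mem replicate 1 lay nearer to WT than to the other Mem libraries and Mem+Sol replicate 6 lay alone. Counts of called collagens in the ileum are given with and without both, and each collagen call that ended without them is named.

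To compare levels between genes, CPM were divided by the exonic length of each gene in kilobases. In WT ileum Col3a1, the chain of type III collagen, stood highest at 51.4 ± 17.3 CPM per kilobase (SD, n = 5), followed by the type VI chain Col6a1 at 47.4 ± 14.5 and the type I chain Col1a1 at 45.3 ± 24.4. These 3 levels differ by less than their spread. Next came the major basement membrane chains Col4a1 (34.3 ± 15.6) and Col4a2 (25.6 ± 9.52), then the second type I chain Col1a2 (25.3 ± 10.4) and Col6a2 (23.1 ± 9.08). This order depends on the lengths, which join all annotated exons of a gene. They were 12.4 kilobases for Col1a2 and 6.56 for Col1a1, and 8.33 for Col6a2 and 4.38 for Col6a1. Before division by length, Col1a2 had a mean of 314 CPM in WT ileum and Col1a1 298. In WT lung the order by CPM per kilobase opened with Col4a1 at 118 ± 15.9 and Col4a2 at 107 ± 9.94, which overlap within their SD, and went on to Col6a1 (81.7 ± 8.86), Col3a1 (68.3 ± 17.2), Col1a1 (54.7 ± 8.25) and Col1a2 (41.7 ± 5.32). Before division by length, Col1a2 was above Col1a1 in each WT lung library.

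Several chains were abundant in 1 tissue and low in the other. Col4a3 and Col4a4, chains of the alveolar and glomerular basement membrane, were at 31.4 ± 8.08 and 14.6 ± 3.01 CPM per kilobase in WT lung and at 0.176 and 0.0975 in WT ileum. Col4a5, their partner, was at 21.2 and 1.37. Among the transmembrane collagens Col23a1 was at 20.3 ± 1.79 in lung and 3.7 in ileum, Col13a1 at 16.8 and 2.01, and Col17a1, the hemidesmosome collagen of epithelium, at 1.59 and 0.0391. The type VI chain Col6a4 had the opposite order with 0.104 in lung and 7.19 ± 2.32 in ileum, as did Col6a5 with 0.114 and 0.921. The tables of the tissues were normalized separately, so these levels are set side by side without a test.

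**Figure D1:**
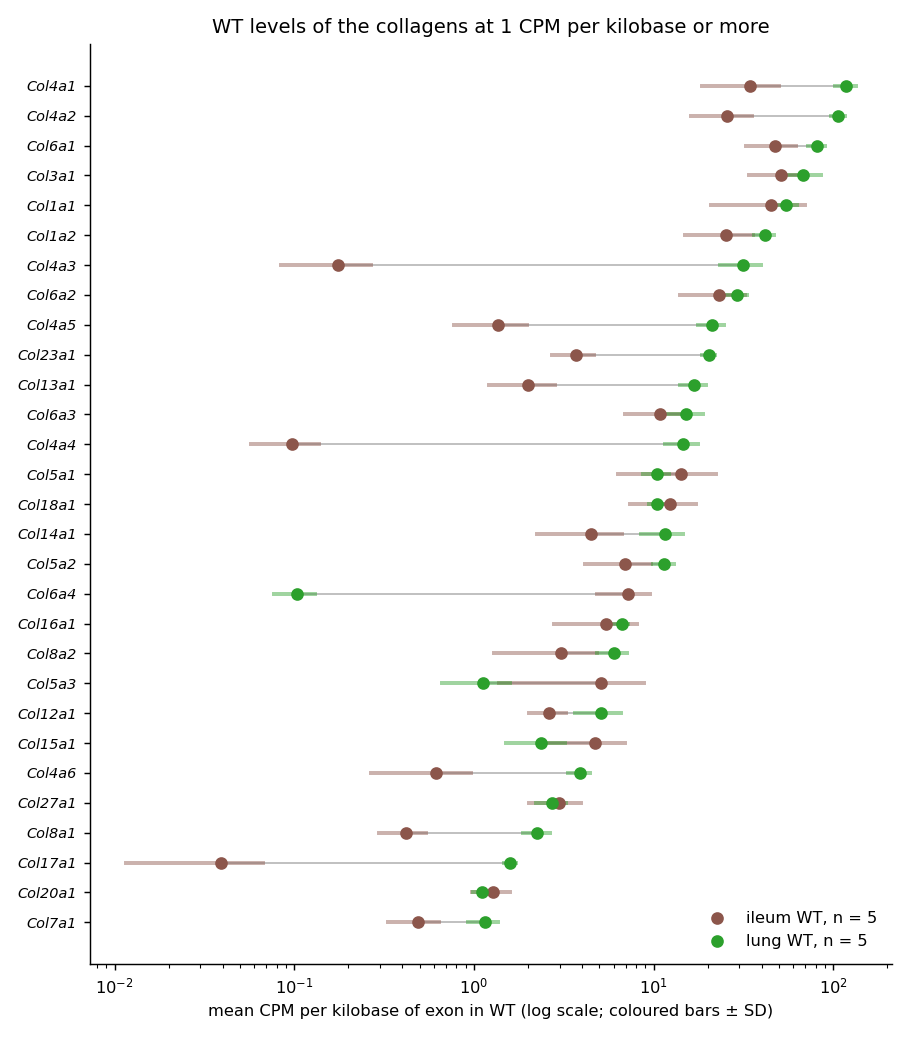
Mean level in WT ileum (brown) and WT lung (green) of each collagen gene at 1 CPM per kilobase or more in either tissue, in CPM per kilobase of exon on a log axis, with bars of 1 SD over 5 libraries. The points lie far apart for Col4a3 (0.176 and 31.4) and Col6a4 (7.19 and 0.104) and close together for Col3a1 and Col1a1.

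Many collagen transcripts were higher in the ileum of Mem mice than in WT, mostly fibrillar and type VI chains. Summed over the 44 genes, collagens reached 4501, 2680, 2404, 2076 and 1916 CPM in the WT libraries (replicates 1 to 5) and 3679, 8498, 5845, 7860 and 6995 CPM in Mem. Mem replicate 1 lay below WT replicate 1, the single female WT library of the ileum, and the other 4 Mem libraries lay above every WT library. Of 44 collagens 37 had enough counts to be tested. In Mem 10 of these rose, against 5.0% of the 14959 tested genes, and 0 fell, against 3.06% of them, by edgeR's quasi-likelihood test at an adjusted p under 0.05. No collagen was lower at an unadjusted p under 0.05 (15 were higher), and DESeq2 called 12 higher and 0 lower. Here and below, counts at an unadjusted p and by DESeq2 were not set against a share of all genes. The median log2 fold change over the tested collagens was 0.66, against 0.00 over all tested genes. The tissue pieces were sequenced whole, so more collagen-making cells and more collagen RNA per cell cannot be told apart.

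In Mem+Sol ileum 17 of the 37 tested collagens rose, against 16.6% of all tested genes, and 0 fell, against 12.1%. At an unadjusted p under 0.05, 20 were higher and 1 was lower, and DESeq2 called 20 higher and 0 lower. The median log2 fold change was 0.79, against 0.01 over all genes. The sum of the 44 collagens was 6036, 12279, 10080, 7773, 4375 and 6879 CPM in replicates 1 to 6, so that replicate 5 alone lay inside the WT range. Both comparisons use the same WT libraries, and 10 collagens were called in both, 7 in Mem+Sol alone and 0 in Mem alone. Without Mem replicate 1 and Mem+Sol replicate 6, 13 collagens were called in Mem and 16 in Mem+Sol.

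Promoter sequence of 4 of the called genes is given to show the regions from which these transcripts start: the most abundant fibrillar chain, the chains with the largest fold change of the fibrillar and the type VI class, and the type VI chain with the smallest adjusted p. They come from RefSeq (GRCm38.p6), cover the 250 bases before the annotated start, and are printed 5′ to 3′ on the gene's strand. Capitals mark a match to a TATA box (TATAAA) or a GC box (GGGCGG), searched on both strands together with the CCAAT box (CCAAT). In these windows the matches do not overlap one another. The windows are chr1:45311288-45311537 (plus strand) for Col3a1, chr3:145292222-145292471 (plus) for Col24a1, chr10:76623631-76623880 (minus) for Col6a2 and chr9:105960644-105960893 (minus) for Col6a5.
Col3a1: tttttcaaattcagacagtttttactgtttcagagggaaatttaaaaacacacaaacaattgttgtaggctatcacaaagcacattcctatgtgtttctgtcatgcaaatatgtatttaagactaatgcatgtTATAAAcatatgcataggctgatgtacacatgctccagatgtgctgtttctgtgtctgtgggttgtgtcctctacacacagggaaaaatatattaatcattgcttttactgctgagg
Col24a1: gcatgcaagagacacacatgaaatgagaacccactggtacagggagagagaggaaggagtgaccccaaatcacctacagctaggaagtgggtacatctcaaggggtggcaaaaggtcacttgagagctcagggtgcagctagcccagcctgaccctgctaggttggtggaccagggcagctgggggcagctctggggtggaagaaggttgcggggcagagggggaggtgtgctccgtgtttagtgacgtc
Col6a2: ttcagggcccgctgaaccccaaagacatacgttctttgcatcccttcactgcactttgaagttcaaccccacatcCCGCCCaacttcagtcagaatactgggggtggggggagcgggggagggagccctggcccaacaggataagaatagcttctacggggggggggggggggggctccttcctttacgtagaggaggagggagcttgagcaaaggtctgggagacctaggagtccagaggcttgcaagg
Col6a5: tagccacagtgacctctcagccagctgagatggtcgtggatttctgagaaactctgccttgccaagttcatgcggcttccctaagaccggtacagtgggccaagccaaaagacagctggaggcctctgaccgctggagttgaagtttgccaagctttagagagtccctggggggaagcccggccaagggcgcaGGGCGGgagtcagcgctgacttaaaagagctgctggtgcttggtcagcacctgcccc
Col3a1 has the letters TATAAA beginning 117 bases before the start, Col6a2 has a GC box on the opposite strand 175 bases before it, Col6a5 has one 57 bases before it, and Col24a1 has none of the 3 motifs in this window. Col6a2 has a further annotated start, whose window (chr10:76623405-76623654) is not printed and holds 3 GC boxes, at 67, 15 and 11 bases before that start. Over 38 windows of 35 collagen genes a TATA box was found in 13.2%, a CCAAT box in 34.2% and a GC box in 57.9%, against 12.4%, 33.8% and 32.7% of all 32851 windows of the same length. In the 9 windows of collagens that rose in both genotypes the shares were 11.1%, 11.1% and 44.4%. A match describes letters and is not evidence of a bound factor.

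Among fibrillar collagens 5 of 10 tested genes rose in Mem (class median log2 1.10), against 5.0% of all genes. In Mem+Sol 6 of 10 rose (1.20), against 16.6%. Col3a1 (chromosome 1, 45311538 to 45349706 of GRCm38) was at 803, 453, 475, 388 and 404 CPM in WT, at 735, 2045, 1372, 1945 and 1782 CPM in Mem, and at 878, 1269 and 2675 CPM (lowest, median, highest) in Mem+Sol. Mem replicate 1 was the 1 transgenic library that fell inside the WT range. The log2 fold change against WT was 1.60 ± 0.32 (SE) in Mem (adjusted p = 0.0078) and 1.49 ± 0.32 in Mem+Sol (adjusted p = 0.0028).

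Col1a2 (chromosome 6, 4504814 to 4541544), 1 of the 2 chains of type I collagen, was at 539, 285, 243, 285 and 218 CPM in WT, at 468, 1015, 740, 981 and 831 CPM in Mem, and at 776, 1054 and 1557 CPM (lowest, median, highest) in Mem+Sol. All 6 Mem+Sol libraries exceeded all WT libraries, and 4 of 5 Mem libraries did. It rose by log2 1.34 ± 0.26 in Mem (adjusted p = 0.0061) and 1.72 ± 0.26 in Mem+Sol (adjusted p = 0.00032). Col1a1 (chromosome 11, 94936224 to 94953042), the other type I chain, was at 572, 282, 244, 233 and 157 CPM in WT, at 405, 1072, 651, 955 and 827 CPM in Mem and at 386, 878 and 1917 CPM (lowest, median, highest) in Mem+Sol. Mem replicate 1 and Mem+Sol replicate 5 lay inside the WT range, whose top is WT replicate 1. The log2 fold change was 1.40 ± 0.38 in Mem (adjusted p = 0.0325) and 1.66 ± 0.38 in Mem+Sol (adjusted p = 0.0042). The Mem call of Col1a1 was lost without Mem replicate 2 (adjusted p = 0.113) or 4 (0.102), or without any of WT replicates 2 to 5 (0.063 to 0.076).

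Col5a2 (chromosome 1, 45374321 to 45503282), a chain of type V collagen that sits inside type I fibrils, lies tail to tail with Col3a1, 24614 bases away. It was at 111, 53.1, 70.6, 53.2 and 44.9 CPM in WT, at 97.6, 255, 162, 204 and 195 CPM in Mem, and at 105, 204 and 336 CPM (lowest, median, highest) in Mem+Sol. Mem replicate 1 and Mem+Sol replicate 5 were again below WT replicate 1, and the other transgenic libraries were above all WT. Col5a2 rose by log2 1.43 ± 0.30 in Mem (adjusted p = 0.0105) and 1.59 ± 0.30 in Mem+Sol (adjusted p = 0.0014). Col5a1, its partner chain, rose in Mem+Sol alone (log2 0.91 ± 0.33, adjusted p = 0.0475), a call lost without any of 9 of the libraries (Mem+Sol 1, 2, 3, 4 or 6, WT 2, 3, 4 or 5, adjusted p 0.0557 to 0.0988) and without the 2 libraries that stood apart (adjusted p = 0.0637). The largest fold change of the class was that of Col24a1, a minor fibrillar chain, from a median of 1.30 CPM in WT (range 0.912 to 3.18) to 7.41 in Mem (1.57 to 11.9) and 7.90 in Mem+Sol (5.21 to 11.5). It rose by log2 2.02 ± 0.43 in Mem (adjusted p = 0.0108) and 2.14 ± 0.43 in Mem+Sol (adjusted p = 0.002).

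Among type VI chains 4 of 5 tested genes rose in both genotypes, against 5.0% of all genes in Mem and 16.6% in Mem+Sol. The class medians were log2 1.59 in Mem and 1.78 in Mem+Sol. Col6a2 (chromosome 10, 76595762 to 76623630) was at 319, 191, 180, 133 and 137 CPM in WT, at 267, 912, 556, 687 and 638 CPM in Mem, and at 444, 770 and 1094 CPM (lowest, median, highest) in Mem+Sol. No Mem+Sol library overlapped WT, and of the Mem libraries replicate 1 did. The log2 fold change was 1.65 ± 0.32 in Mem (adjusted p = 0.006) and 1.89 ± 0.31 in Mem+Sol (adjusted p = 0.00062). Col6a1, its neighbour on chromosome 10 (76708792 to 76726168, 85161 bases apart, same strand), was at 301, 227, 210, 137 and 163 CPM in WT, at 255, 856, 584, 787 and 709 CPM in Mem, and at 372, 780 and 1092 CPM (lowest, median, highest) in Mem+Sol. It showed the same overlap as Col6a2 and rose by log2 1.59 ± 0.34 (adjusted p = 0.0102) and 1.78 ± 0.34 (adjusted p = 0.0013).

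Col6a3, the longest chain of classical type VI collagen, had smaller changes of log2 0.99 ± 0.26 (adjusted p = 0.03) and 1.00 ± 0.26 (adjusted p = 0.0087), from a median of 117 CPM in WT to 274 in Mem and 262 in Mem+Sol. The Mem call of Col6a3 was lost without Mem replicate 2, 4 or 5 or WT replicate 2, 4 or 5 (adjusted p 0.0553 to 0.115). Col6a5, a later described type VI chain, had the largest fold change of all tested collagens in both genotypes. Its median was 7.91 CPM in WT (3.42 to 13.2), 77.2 in Mem (10.8 to 120) and 72.2 in Mem+Sol (15.7 to 227), and the fold changes were log2 3.06 ± 0.69 in Mem (adjusted p = 0.0134) and 2.79 ± 0.75 in Mem+Sol (adjusted p = 0.0114). Mem replicate 1 was the 1 transgenic library within the WT range. Col6a4, the most abundant of these late described chains in WT ileum per kilobase, had log2 values of -0.06 and 0.27 and was not called.

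Basement membrane chains split by gene. Col4a1 and Col4a2, which lie head to head on chromosome 8 (11198423 to 11312826 and 11312805 to 11449287) and encode the common type IV network, were at a median of 202 and 140 CPM in WT. Col4a1 was at 450, 276, 202, 187 and 164 CPM in WT, at 343, 524, 435, 511 and 461 CPM in Mem and at 248, 656 and 961 CPM (lowest, median, highest) in Mem+Sol. Col4a2 was at 278, 170, 135, 140 and 124 CPM in WT, at 241, 356, 319, 387 and 316 CPM in Mem and at 169, 489 and 604 CPM (lowest, median, highest) in Mem+Sol. In Mem+Sol replicate 5 was the 1 library inside the WT range for both genes. Both rose in Mem+Sol, by log2 1.33 ± 0.30 (adjusted p = 0.0044) and 1.45 ± 0.29 (adjusted p = 0.002), and were not called in Mem, at log2 0.82 ± 0.31 (adjusted p = 0.12) and 0.93 ± 0.29 (adjusted p = 0.063). That absence of a call rests on single libraries: without WT replicate 1 both Col4a1 (adjusted p = 0.0413) and Col4a2 (0.0229) were called in Mem, and without Mem replicate 1 Col4a2 was (0.0356). The genes overlap by 22 bases at their starts, and the strand of counting is not given in the sources used here, so reads in that stretch could be counted for either.

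The other 4 type IV chains were not called in either genotype. Col4a3, Col4a4, Col4a5 and Col4a6 had log2 values of -0.55, -0.65, -0.20 and -0.26 in Mem and of -0.84, -0.53, -0.24 and -0.62 in Mem+Sol. The class median was therefore -0.23 in Mem and -0.38 in Mem+Sol. In Mem 0 of 6 were called, against 5.0% of all genes that rose, and from 0 to 2 with 1 library left out. In Mem+Sol 2 of 6 were called, against 16.6% of all genes that rose. Counts out of 6 are too few to set apart from these shares. Adjusted p for Col4a3, Col4a4, Col4a5 and Col4a6 ran from 0.0839 to 0.514 in Mem+Sol.

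Of the remaining classes a few members rose. Col15a1 (chromosome 4, 47208161 to 47313167), a basement membrane zone collagen of vessels and muscle, was at 44.6, 40.9, 33.1, 11 and 20 CPM in WT, at 52.0, 81.7, 63.8, 92.5 and 75.9 CPM in Mem, and at 43.7, 74.7 and 136 CPM (lowest, median, highest) in Mem+Sol. All 5 Mem libraries and 5 of 6 Mem+Sol libraries lay above every WT library. It rose by log2 1.27 ± 0.34 in Mem (adjusted p = 0.0316) and 1.42 ± 0.34 in Mem+Sol (adjusted p = 0.0059). The Mem call of Col15a1 was lost without Mem replicate 2 or 4 or WT replicate 4 or 5 (adjusted p 0.063 to 0.103). Its relative Col18a1, the source of endostatin, had log2 0.74 and 0.91 and was not called.

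Col8a1 (chromosome 16, 57624258 to 57754737), a short-chain network collagen of vessel walls, was at 4.24, 2.33, 2.22, 4.16 and 3.49 CPM in WT, at 5.01, 8.61, 4.73, 7.39 and 5.9 CPM in Mem, and at 6.14, 10.6 and 18.9 CPM (lowest, median, highest) in Mem+Sol. Neither transgenic group overlapped WT, although only the Mem+Sol difference was called (log2 1.90 ± 0.31, adjusted p = 0.00057, against 0.95 in Mem, adjusted p = 0.0741). Col12a1, which decorates type I fibrils, was at 50.1, 33.9, 39.0, 28.5 and 48.4 CPM in WT, at 39.1, 64.3, 56.0, 81.7 and 74.8 CPM in Mem, and at 43.2, 77.3 and 93.4 CPM (lowest, median, highest) in Mem+Sol. Of the Mem+Sol libraries 5 of 6 lay above every WT library. Col12a1 rose in Mem+Sol by log2 0.87 ± 0.23 (adjusted p = 0.0098) and was not called in Mem (log2 0.64, adjusted p = 0.105).

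Col16a1, also fibril-associated, was at 65.9, 29.5, 29.6, 41.0 and 18.2 CPM in WT, at 51.6, 71.6, 44.5, 55.9 and 45 CPM in Mem, and at 41.4, 63.4 and 90.8 CPM (lowest, median, highest) in Mem+Sol. The groups overlap because of WT replicate 1. The Mem+Sol call for Col16a1 (log2 0.78 ± 0.27, adjusted p = 0.0391) was lost without any of Mem+Sol replicates 1, 2, 4 or 6 or WT replicates 2 to 5 (adjusted p 0.05 to 0.0865), and without the 2 libraries that stood apart (log2 0.76, adjusted p = 0.0774). Col28a1, a chain found around Schwann cells, was near 1 CPM, at 1.06, 0.518, 0.261, 1.39 and 1.06 CPM in WT, at 0.884, 1.63, 1.51, 2.42 and 1.3 CPM in Mem, and at 1.16, 2.04 and 3.5 CPM (lowest, median, highest) in Mem+Sol. In Mem+Sol 5 of 6 libraries lay above every WT library. It was called in Mem+Sol (log2 1.33 ± 0.39, adjusted p = 0.0191), but not without Mem+Sol replicate 6 (adjusted p = 0.0534) and not after all ileum libraries were thinned to the smallest total (log2 0.81, adjusted p = 0.461). In the same libraries 2 of 3 glial markers were called higher in Mem+Sol, against 16.6% of all genes. The glial markers together summed to 8.34 to 25.5 CPM in WT, 11.4 to 19.4 in Mem and 15.3 to 58.5 in Mem+Sol. No transmembrane collagen was called among 3 tested, too few to set against the shares of all genes.

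**Figure D2:**
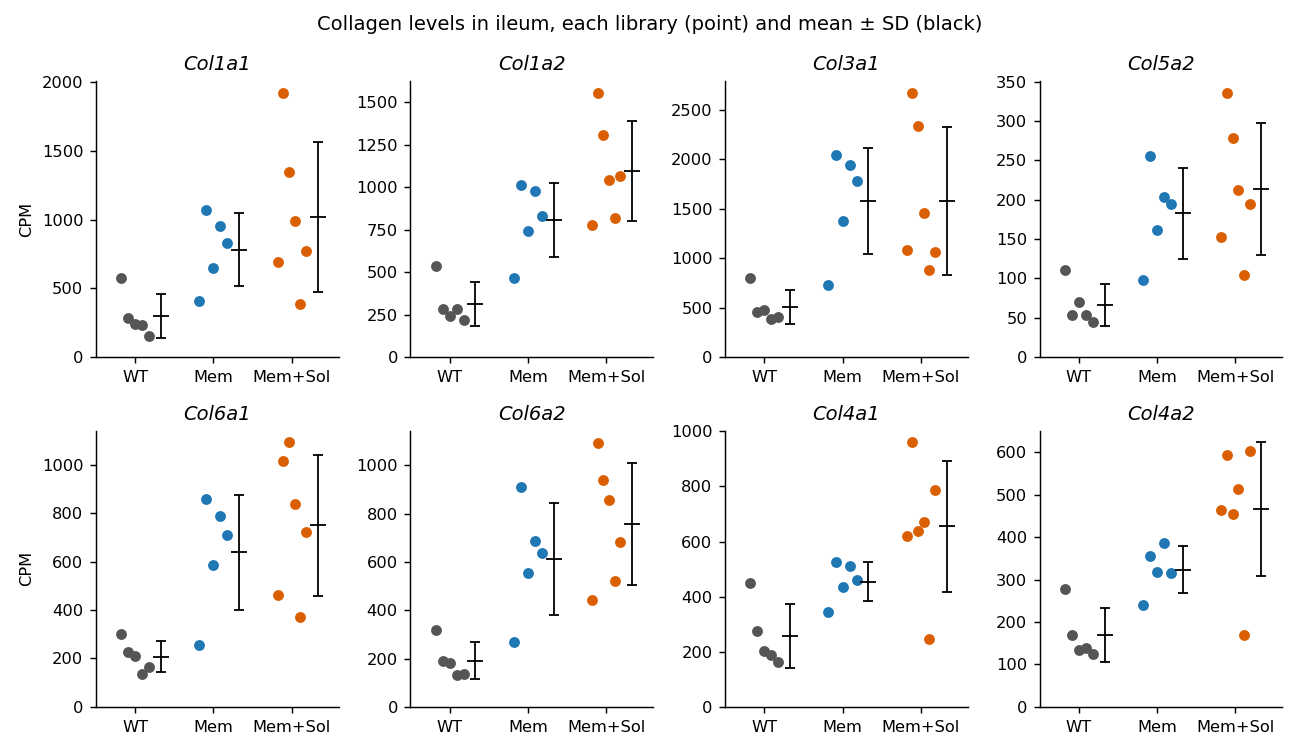
Level in CPM of 8 collagen genes in each ileum library by genotype (points), with the group mean and 1 SD (n = 5, 5 and 6). WT replicate 1 is the top WT point for all 8 genes, at 803 CPM for Col3a1, and Mem replicate 1 is the lowest Mem point, at 735 CPM.

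The balance between chains of 1 collagen type was described from levels per kilobase, without a test. In the ileum the ratio of Col6a3 to Col6a1 was 0.228 ± 0.0239 in WT (range 0.189 to 0.251), 0.160 ± 0.0269 in Mem (0.117 to 0.191) and 0.144 ± 0.0310 in Mem+Sol (0.105 to 0.186), so that 1 Mem library reached into the WT range and no Mem+Sol library did. The ratio of Col5a2 to Col5a1 was 0.520 ± 0.0991 in WT (0.418 to 0.651), 0.801 ± 0.166 in Mem (0.526 to 0.937) and 0.825 ± 0.189 in Mem+Sol (0.528 to 1.01), with overlap. Col4a2 to Col4a1, which share a promoter region, stayed at 0.768, 0.802 and 0.805, differences smaller than the spread.

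No collagen was called between the transgenic genotypes in the ileum. Of 37 tested, 0 passed edgeR's test, against 0.0134% of all genes in either direction, with 1 higher in Mem+Sol at an unadjusted p under 0.05 and 0 called by DESeq2. The log2 values ran from -0.50 to 0.95 with a median of 0.15 (0.01 over all genes). Col8a1 had the highest, 0.95 ± 0.29 (adjusted p = 0.386), Col4a1 and Col4a2 were at 0.51 ± 0.30 and 0.52 ± 0.28, and Col3a1 was at -0.11 ± 0.30.

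Some genes that fold, modify and cross-link collagen were also called in the ileum, where 5.0% of all genes rose in Mem and 16.6% rose and 12.1% fell in Mem+Sol. Of 19 tested genes for chain assembly 8 rose in Mem (list median log2 0.64), among them the collagen chaperone Serpinh1 (0.98 ± 0.21, adjusted p = 0.0098), the prolyl hydroxylase P4ha1 (1.42) and Lepre1 (1.23), a prolyl 3-hydroxylase now named P3h1. In Mem+Sol 14 rose, with P4ha1 at 2.15, Serpinh1 at 1.42 and Lepre1 at 1.70, and Tram2 fell (-1.10, adjusted p = 0.04). Of 12 genes for propeptide removal and cross-linking 4 rose in Mem, including the N-propeptidase Adamts2 (1.33), the C-proteinase enhancer Pcolce (1.00) and the lysyl oxidase Loxl2 (0.96). In Mem+Sol 7 rose, led by Loxl2 (1.65), Loxl1 (1.61) and Pcolce (1.51).

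Against the same shares of all genes, of 9 collagen receptors 0 were called in Mem and 3 rose in Mem+Sol, the integrin chains Itgb1 (1.12) and Itga1 (1.24) and the discoidin receptor Ddr2 (1.39). Among 13 regulators of collagen synthesis 4 rose in Mem and 6 in Mem+Sol, where Smad7 (-1.17) and Smad3 (-0.38), components of transforming growth factor beta signalling, fell. Connective tissue growth factor, Ctgf, rose by log2 2.29 in Mem+Sol (adjusted p = 8.6e-05). The type 2 cytokine Il13 was at 0.00 to 0.391 CPM in WT, 0.0983 to 8.16 in Mem and 0.198 to 3.78 in Mem+Sol.

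Markers of collagen-making cells moved in the same samples. For the counts of called markers, 5.0% of all tested genes rose and 3.06% fell in Mem. In Mem+Sol 16.6% rose and 12.1% fell, so that 1 marker called of 3 or 4 lies near these shares. The summed level of 7 smooth muscle markers ran from 2118 to 4746 CPM in WT, 7400 to 12554 in Mem and 10530 to 50347 in Mem+Sol, with 4 of 7 markers called higher in Mem and 7 of 7 in Mem+Sol. The 2 highest sums, 50347 and 32526 CPM, belonged to Mem+Sol replicates 6 and 4. The sum of 8 fibroblast markers ran from 406 to 643 CPM in WT, 529 to 1021 in Mem and 706 to 1324 in Mem+Sol, with 4 of 8 markers higher in both. Endothelial markers (3 of 5 higher in both) summed to 42.0 to 124, 113 to 219 and 166 to 238 CPM, and pericyte markers (0 and 2 of 4) to 141 to 254, 230 to 416 and 172 to 712 CPM. The sum of 4 epithelial markers was 7248 to 9415 CPM in WT, 5121 to 7837 in Mem and 4872 to 8865 in Mem+Sol, with 1 of 4 called lower in both. The 4 ileum markers named above, of absorptive epithelium, summed to 7067 to 11486 CPM in WT, 1408 to 6011 in Mem and 1050 to 2378 in Mem+Sol, without overlap with WT, and 1 of 4 was called lower in Mem (list median log2 -1.54) and 4 of 4 in Mem+Sol (-3.01). Of 3 glial and 3 striated muscle markers 0 were called in Mem, and 2 and 1 were higher in Mem+Sol. No mesothelial, cartilage or adipocyte marker was called. The part of these cell types in the collagen differences was not tested.

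**Figure D3:**
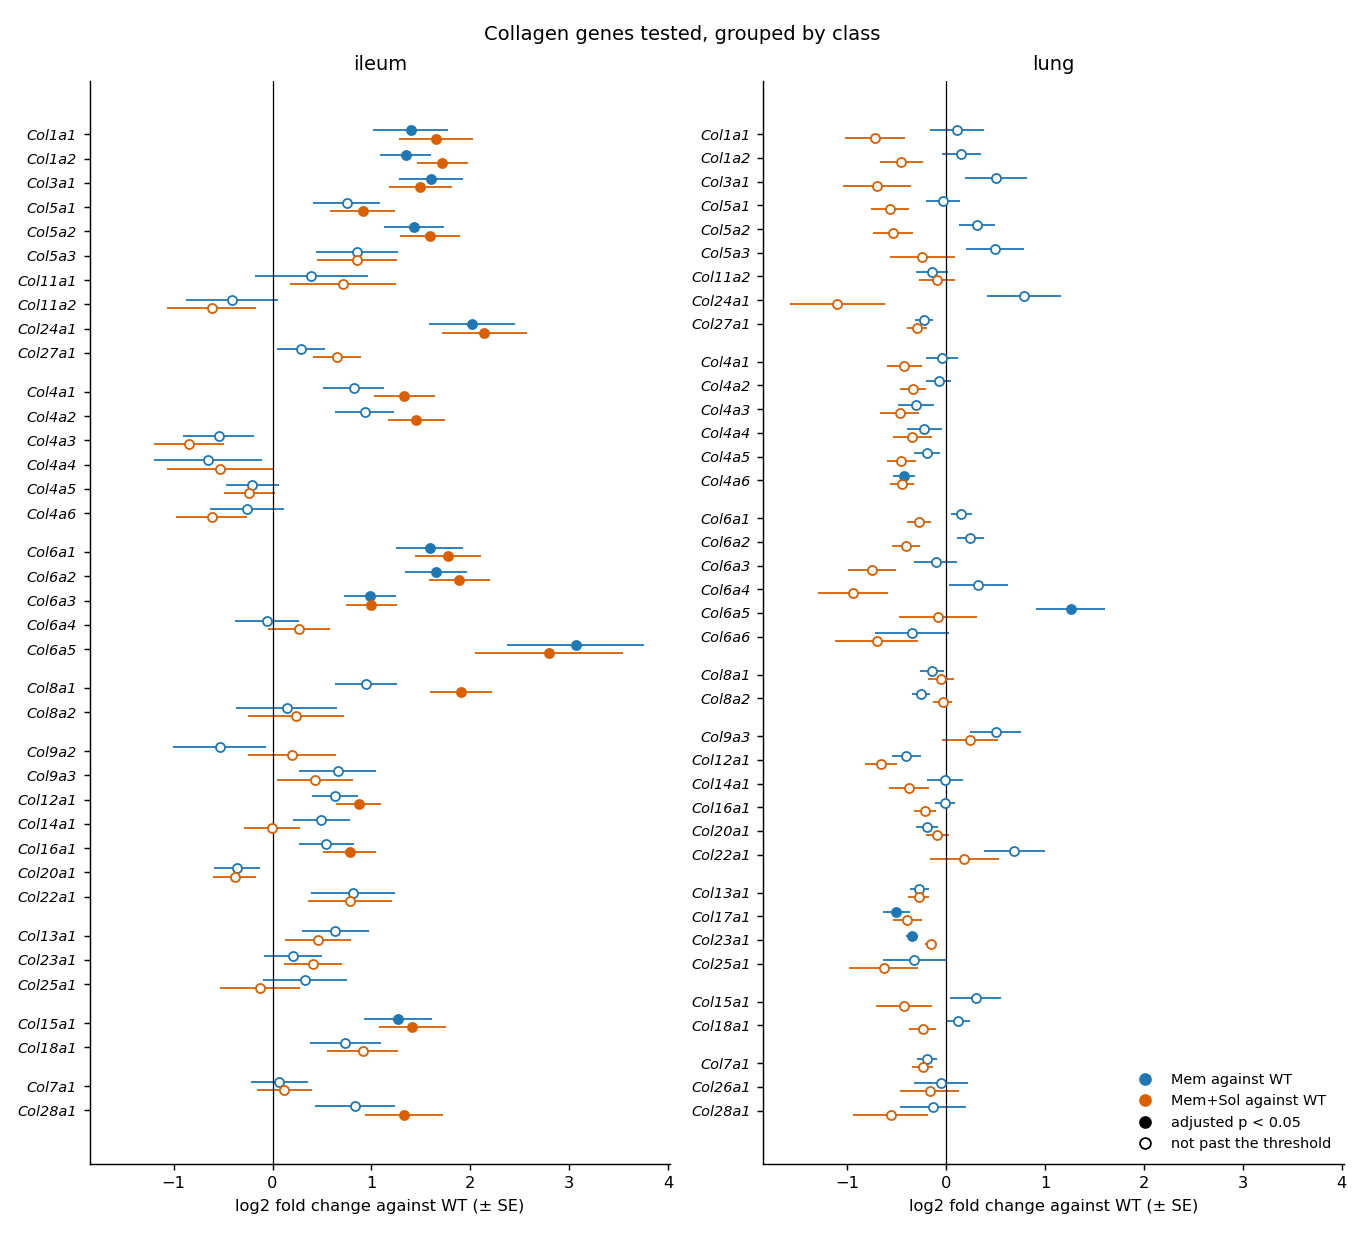
Log2 fold change against WT of every tested collagen gene, grouped by class, for the ileum and the lung (Mem in blue, Mem+Sol in orange, bars of 1 SE, filled points called at an adjusted p under 0.05). In the ileum 10 and 17 genes are filled, all above 0, while in the lung 4 Mem points and no Mem+Sol point are filled.

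In the lung few collagens were called in Mem and none in Mem+Sol, where most log2 values were negative. Of 38 tested collagens 1 rose in Mem, against 6.41% of the 15885 tested genes, and 3 fell, against 3.05%. The median log2 fold change was -0.07 (-0.02 over all genes). In Mem+Sol 0 of 38 were called, against 0.844% of all genes in either direction, by edgeR's quasi-likelihood test. At an unadjusted p under 0.05 in that test 19 were lower and 0 higher, and DESeq2 called 3 lower. These counts were not set against a share of all genes. In Mem+Sol 36 of 38 log2 values were negative, and the median was -0.38 (0.01 over all genes). The sum of the 44 collagens was 4606 to 6063 CPM in WT, 4273 to 6854 in Mem and 4628, 5095, 3042 and 3604 CPM in Mem+Sol replicates 1 to 4, where the last 2 are the batch 2 libraries.

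The gene that rose in Mem lung was Col6a5, as in the ileum, but at low level. It was at 1.09, 1.06, 0.848, 0.663 and 1.68 CPM in WT, at 1.71, 4.42, 1.39, 4.32 and 2.9 CPM in Mem and at 0.662, 1.67, 0.653 and 1.57 CPM in Mem+Sol. Of the Mem libraries 4 of 5 lay above all WT. The log2 fold change was 1.26 ± 0.35 (adjusted p = 0.0383), with 1.02 in batch 1 (adjusted p = 0.135) and 1.49 in batch 2 (0.330). The call was lost without Mem replicate 2, 4 or 5 or without any WT replicate (adjusted p 0.0514 to 0.122).

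The collagens that fell in Mem lung were Col23a1, Col17a1 and Col4a6. Col23a1, a transmembrane collagen, was at 127, 116, 118, 122 and 100 CPM in WT, at 105, 93.7, 89.1, 81.1 and 78.7 CPM in Mem and at 95.1, 85.8, 104 and 123 CPM in Mem+Sol. Mem replicate 1 was the 1 Mem library inside the WT range. Its log2 value was -0.35 ± 0.06 (adjusted p = 0.0018), with -0.35 and -0.30 in batches 1 and 2 (adjusted p = 0.0702 and 0.275). This call held with each library left out (adjusted p 0.00281 to 0.0115), and without a batch term the adjusted p was 0.051.

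Col17a1 was at 10.3, 10.3, 8.86, 9.32 and 9.11 CPM in WT, at 9.23, 6.66, 6.73, 4.32 and 6.59 CPM in Mem and at 7.48, 6.45, 8.22 and 6.81 CPM in Mem+Sol. Mem replicate 1 overlapped WT, and all 4 Mem+Sol libraries lay below it although that difference was not called (log2 -0.39, adjusted p = 0.205). In Mem the log2 value was -0.51 ± 0.13 (adjusted p = 0.0301), with -0.56 and -0.37 in the batches (0.124 and 0.417), and the call of Col17a1 was lost without Mem replicate 2 or 3 or WT replicate 2, 3 or 5 (adjusted p 0.0507 to 0.103). Col4a6 was at 34.8, 36.9, 28.2, 27.8 and 28.1 CPM in WT, at 30.5, 30, 19.7, 18.3 and 18.9 CPM in Mem and at 20.7, 25.9, 22.2 and 24.3 CPM in Mem+Sol. The Mem libraries 1 and 2 and WT libraries 1 and 2, all of batch 2, were the higher ones of their groups, and the groups overlap. The log2 value of Col4a6 in Mem was -0.43 ± 0.11 (adjusted p = 0.0269), with -0.53 in batch 1 (adjusted p = 0.0398) and -0.25 in batch 2 (0.247), and the call was lost without Mem replicate 3, 4 or 5 or WT replicate 2, 3 or 5 (adjusted p 0.052 to 0.1). Of all tested genes 3.05% fell in Mem lung. Endothelial markers summed to 3256 to 3475 CPM in WT lung and 2393 to 3219 in Mem (2 of 5 lower), and pericyte markers to 392 to 425 and 265 to 385 CPM (2 of 4 lower). Their part in the 3 decreases was not tested.

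The abundant fibrillar and basement membrane chains were not called against WT in the lung. Col3a1 was at 800, 828, 491, 487 and 747 CPM in WT, at 1104, 1172, 666, 1170 and 912 CPM in Mem and at 649, 730, 175 and 306 CPM in Mem+Sol, where the last 2 are of batch 2. The batch 2 pair lay below every WT library and the batch 1 pair within the WT range. Its log2 values were 0.50 ± 0.31 in Mem (adjusted p = 0.32) and -0.70 ± 0.34 in Mem+Sol (adjusted p = 0.332). Col1a1 was at 409, 377, 270, 349 and 389 CPM in WT, at 501, 483, 290, 314 and 393 CPM in Mem and at 321, 330, 109 and 163 CPM in Mem+Sol, with the same split by batch. The log2 values were 0.11 ± 0.27 (adjusted p = 0.83) and -0.72 ± 0.30 (adjusted p = 0.26).

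Col1a2 was at 565, 599, 430, 489 and 507 CPM in WT, at 680, 701, 446, 577 and 537 CPM in Mem and at 546, 453, 227 and 348 CPM in Mem+Sol (log2 0.15 in Mem, adjusted p = 0.66, and -0.45 in Mem+Sol, adjusted p = 0.313). Again the 2 batch 2 libraries of Mem+Sol were the ones below WT. Col4a1 was at 966, 828, 742, 835 and 1040 CPM in WT, at 1016, 952, 635, 966 and 827 CPM in Mem and at 788, 901, 499 and 573 CPM in Mem+Sol, and Col4a2 at 808, 682, 628, 726 and 710 CPM in WT, at 844, 735, 521, 694 and 600 CPM in Mem and at 575, 663, 500 and 537 CPM in Mem+Sol. For Col4a1 the batch 2 libraries of Mem+Sol, and for Col4a2 replicates 1, 3 and 4, lay below every WT library. Log2 values were -0.04 and -0.08 in Mem and -0.42 ± 0.18 and -0.34 ± 0.14 in Mem+Sol (adjusted p = 0.256 and 0.236).

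**Figure D4:**
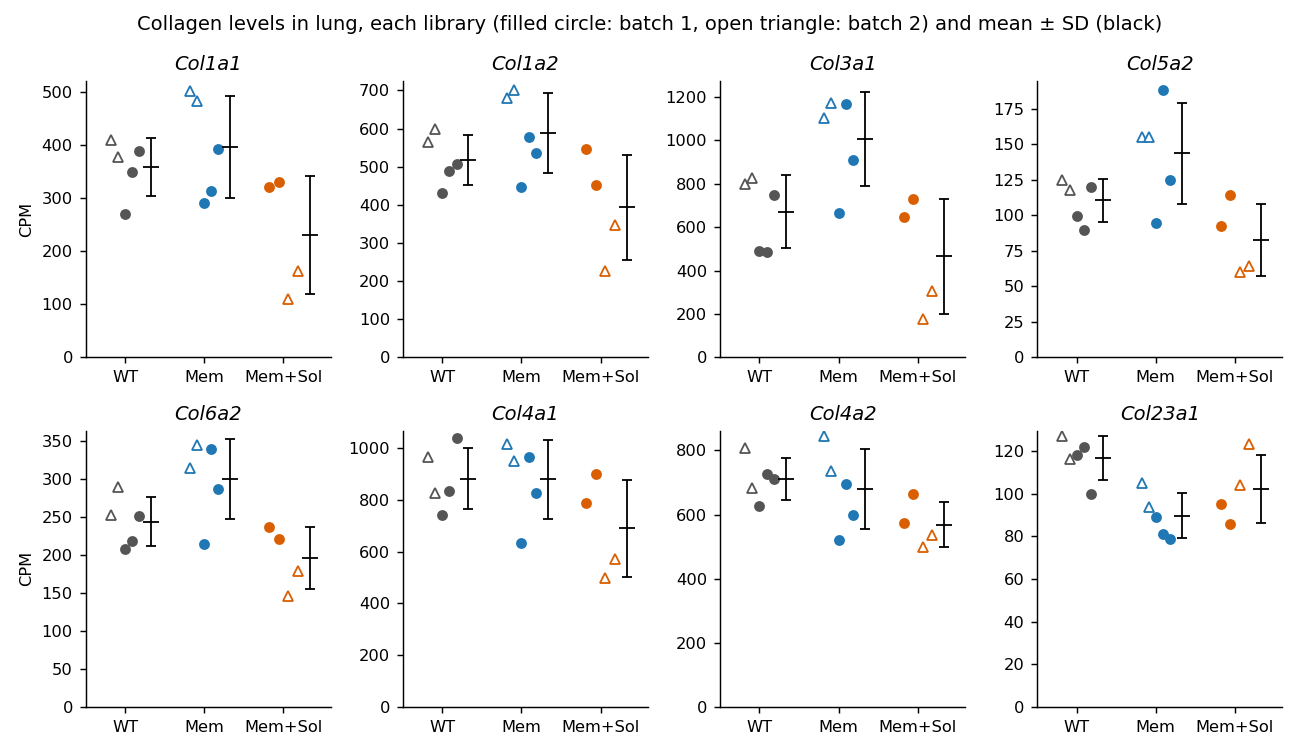
Level in CPM of 8 collagen genes in each lung library by genotype, with the group mean and 1 SD (n = 5, 5 and 4), batch 1 as filled circles and batch 2 as open triangles. The 2 batch 2 libraries of Mem+Sol are the lowest for Col1a1 (109 and 163 CPM) and Col3a1 (175 and 306 CPM).

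Between the transgenic genotypes 3 collagens were lower in Mem+Sol than in Mem lung, against 1.37% of all genes, and 0 were higher, against 0.862%. At an unadjusted p under 0.05 in edgeR's test, 15 were lower and 2 higher. The median log2 difference was -0.33 (0.01 over all genes), and DESeq2 called 7 lower and 1 higher. Col5a2 was at 125, 118, 99.6, 89.6 and 120 CPM in WT, at 155, 155, 94.5, 188 and 125 CPM in Mem and at 92.6, 114, 59.8 and 64.1 CPM in Mem+Sol. Of the Mem+Sol libraries 3 of 4 lay below every Mem library, and Col5a2 was lower by log2 -0.84 ± 0.20 (adjusted p = 0.0404). Col6a2 was at 253, 289, 208, 218 and 251 CPM in WT, at 314, 345, 215, 340 and 287 CPM in Mem and at 237, 221, 146 and 179 CPM in Mem+Sol, where the batch 2 pair lay below every Mem library (log2 -0.65 ± 0.14, adjusted p = 0.032).

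Col24a1, at the low level of 0.626, 0.719, 0.297, 0.515 and 0.383 CPM in WT, was at 1.16, 1.03, 0.513, 1.29 and 0.652 CPM in Mem and at 0.298, 0.525, 0.156 and 0.0627 CPM in Mem+Sol. Of the Mem+Sol libraries 3 of 4 lay below every Mem library, and the log2 difference was -1.89 ± 0.44 (adjusted p = 0.04). The call of Col24a1 was lost without any of Mem replicates 1 to 4 or Mem+Sol replicates 1, 3 or 4 (adjusted p 0.0546 to 0.137). That of Col5a2 was lost without Mem replicate 1, 2 or 4 or Mem+Sol replicate 1, 3 or 4 (0.059 to 0.131), and that of Col6a2 without Mem replicate 2 or 4 or Mem+Sol replicate 3 or 4 (0.0601 to 0.112).

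The lung comparisons were also made within each sequencing batch. Within batch 2 alone 17 collagens were lower in Mem+Sol than in WT, against 4.10% of all genes, with a median log2 of -0.58. Within batch 1 alone 0 were called, against 0.0942% of all genes in either direction. The median there was -0.24, and 35 of 39 values were negative. Against Mem, 19 were lower in batch 2, against 6.45% of all genes, with a median of -0.66. In batch 1, 0 were called, against 0.132% of all genes in either direction, with a median of -0.13. For Mem against WT 2 were lower in batch 1, against 2.05% of all genes (Col4a6, above, and Col12a1 at log2 -0.63, adjusted p = 0.0249). In batch 2, 0 were called, against 0.0315% of all genes in either direction. The counts of 0 thus came from comparisons in which few genes of any kind were called. The same fits called more in other comparisons. Batch 1 gave 6.00% of all genes for Mem against WT, and batch 2 gave 7.49% for Mem+Sol against WT, in either direction. The batch 1 fit held sex, the batch 2 fit did not, and they left 4 and 3 residual degrees of freedom.

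Col1a1 in Mem+Sol against WT was at log2 -0.24 in batch 1 (adjusted p = 0.824) and -1.53 in batch 2 (0.0107), and Col3a1 at -0.13 (0.893) and -1.76 (0.0208). Col1a2 was at -0.08 and -1.01 (0.0283 in batch 2), Col4a1 at -0.33 and -0.74 (0.0118), Col5a2 at -0.34 and -0.97 (0.00159) and Col6a2 at -0.23 and -0.74 (0.0145). The difference between the batches, tested in a fit with both, was not called for Col1a1 (-1.47 ± 0.29, adjusted p = 0.250) or Col3a1 (-1.89 ± 0.39, adjusted p = 0.250). In that test 0 of 38 collagens were called, and 0 of all 15885 tested genes. For Mem+Sol against Mem that test called 1 collagen lower, Col1a1 (-1.82 ± 0.28, adjusted p = 0.0411), against 0.0755% of all genes. The 3 genes called between the transgenic genotypes had log2 values in batches 1 and 2 of -1.09 and -3.28 for Col24a1, -0.56 and -1.32 for Col5a2 and -0.42 and -1.02 for Col6a2. In the same libraries smooth muscle markers summed to 506 and 672 CPM in batch 2 and 919 and 831 in batch 1 of Mem+Sol (767 to 1103 in WT), and fibroblast markers ran from 875 to 1237 CPM in Mem+Sol (1086 to 1282 in WT). Endothelial markers summed to 2778 to 3102 CPM in Mem+Sol (3256 to 3475 in WT) and pericyte markers to 307 to 372 (392 to 425). Neither sum overlapped WT, although 0 of 5 and 0 of 4 markers were called, against 0.844% of all genes in either direction. The part of these cells and of the batch in the lower values was not tested.

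Genes of collagen handling had 1 call in the lung, near or below the shares of all genes. Of 20 assembly genes 1 rose in Mem, against 6.41% of all genes, the prolyl isomerase Ppib (log2 0.24, adjusted p = 0.037). The 12 processing genes, 10 receptors and 11 regulators had 0 called in Mem, where 6.41% of all genes rose and 3.05% fell. All these lists had 0 called for Mem+Sol against WT, as against 0.844% of all genes in either direction. They also had 0 called for Mem+Sol against Mem, where 1.37% of all genes were lower and 0.862% higher.

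The effect of each genotype was then compared between the tissues, as the lung fold change minus the ileum fold change in 1 model over both tables. For Mem 5 of 41 tested collagens had a lower effect in the lung, against 4.67% of the 16867 tested genes, and 0 a higher one, against 3.56%. Of the 5, 4 were tested in both tissues: Col6a2 (-1.42 ± 0.36, adjusted p = 0.0168), Col6a1 (-1.44 ± 0.38, adjusted p = 0.0188), Col12a1 (-1.05 ± 0.29, adjusted p = 0.0249) and Col1a2 (-1.20 ± 0.34, adjusted p = 0.0294). The other, Col17a1 (-1.95 ± 0.58, adjusted p = 0.0359), had too few counts to be tested in the ileum, where all libraries together held 168, and entered the joint model through the lung alone. Its call was lost after the ileum libraries were thinned to the smallest total (log2 -1.54, adjusted p = 0.312). The median difference over collagens was -0.79 (-0.02 over all genes). Without the 2 ileum libraries that stood apart 13 collagens were called. The call of Col12a1 was also lost without a batch term (adjusted p = 0.126). Each of the 5 calls was lost without some library: Col6a2 without ileum Mem 2 (adjusted p = 0.0505), Col6a1 without ileum Mem 2 or 4 (0.0503 to 0.0534), Col12a1 without ileum Mem 4, lung Mem 3 or lung WT 2 or 5 (0.0509 to 0.071), Col1a2 without ileum Mem 2 or 4, ileum WT 3, lung Mem 3, 4 or 5 or lung WT 1 or 2 (0.0507 to 0.0757), and Col17a1 without any of 11 libraries (ileum Mem 2, 4 or 5, ileum WT 3, 4 or 5, lung Mem 2, 3 or 4, lung WT 2 or 5, adjusted p 0.0507 to 0.0931).

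For Mem+Sol 19 of 41 collagens had a lower effect in the lung, against 11.6% of all genes, and 0 a higher one, against 6.55%, with a median of -1.09 (-0.01 over all genes). Of the 19, 18 were tested in both tissues, and Col17a1 (-2.42 ± 0.57, adjusted p = 0.00455) was again not tested in the ileum. The 19 took in 7 of 10 fibrillar chains, 4 of 6 type VI chains and 2 of 6 basement membrane chains. At an unadjusted p under 0.05 no collagen had a higher effect in the lung in either genotype (15 and 22 had a lower one), and DESeq2 called 0 higher. Among those tested in both tissues Col24a1 had the largest difference (-3.25 ± 0.70, adjusted p = 0.00233), followed by Col6a5 (-2.89 ± 0.97, adjusted p = 0.0386), Col1a1 (-2.37 ± 0.53, adjusted p = 0.00307) and Col6a2 (-2.29 ± 0.38, adjusted p = 0.000341). Col3a1 was at -2.18 ± 0.49 and Col4a1 and Col4a2 at -1.75 ± 0.40 and -1.78 ± 0.36. In this comparison Col16a1, Col27a1, Col28a1, Col5a1 and Col6a5 lost their call without some single library (Col5a1 without lung Mem+Sol 4, adjusted p = 0.0649), and the other 14 kept it with each library left out. Col16a1 lost it without ileum Mem+Sol 1, 2, 4 or 6, ileum WT 2, 3 or 5, lung Mem+Sol 2, 3 or 4, lung WT 1, 2, 4 or 5 (adjusted p 0.0528 to 0.117), and without the 2 ileum libraries that stood apart (log2 -0.97, adjusted p = 0.0602). Col27a1 lost it without ileum WT 3, lung Mem+Sol 2 or 3, lung WT 2 or 5 (adjusted p 0.0534 to 0.0745). Col28a1 lost it without lung Mem+Sol 3 or 4, lung WT 5 (adjusted p 0.0533 to 0.0821). Col6a5 lost it without ileum WT 1 or 4, lung Mem+Sol 1 or 3, lung WT 1, 2 or 5 (adjusted p 0.0512 to 0.0938). Col17a1 was at 0.107 to 0.518 CPM in WT ileum and 0.264 to 1.48 in Mem+Sol ileum, and its call was lost after the ileum libraries were thinned (log2 -2.27, adjusted p = 0.0563), as were those of Col16a1 (0.063), Col27a1 (0.0765) and Col28a1 (0.108).

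**Figure D5:**
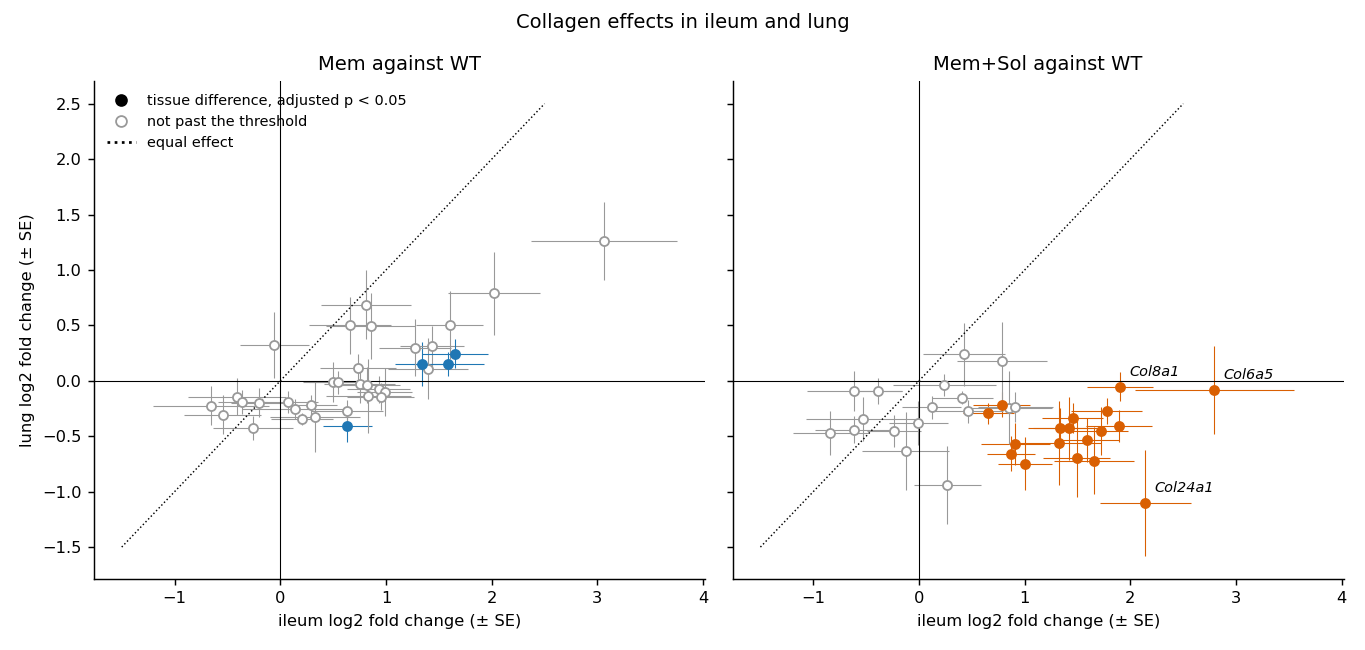
Log2 fold change against WT in the ileum (x axis) and the lung (y axis) for each collagen gene tested in both tissues, for Mem and Mem+Sol, with filled points where the difference between the tissues was called and a dotted line of equal effect. Filled points are the 5 called genes in Mem and the 19 in Mem+Sol, except Col17a1. That gene was not tested in the ileum and is not drawn. All filled points lie below the line.

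Of the genes of collagen handling, 7 of 20 assembly genes had a lower effect in lung than ileum in Mem, against 4.67% of all genes. The other lists had 1 of 12 processing genes, 1 of 10 receptors and 1 of 14 regulators, where a single gene is all that was called. For Mem+Sol it was 13, 8, 4 and 4, against 11.6%, with 1 regulator higher, against 6.55%. Smooth muscle markers had a lower effect in the lung for 5 of 7 genes in Mem and 7 of 7 in Mem+Sol, and fibroblast markers for 3 of 8 and 4 of 8. Endothelial markers had one for 4 of 5 and 3 of 5, and pericyte markers for 2 of 4 in both. Their part in the tissue difference of the collagens was not tested.

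Of the 44 collagens 7 were not tested in the ileum (Col10a1, Col17a1, Col19a1, Col26a1, Col2a1, Col6a6 and Col9a1) and 6 in the lung (Col10a1, Col11a1, Col19a1, Col2a1, Col9a1 and Col9a2), because their counts were too low. They include Col2a1, Col9a1 and Col10a1, the collagens of cartilage. The tested collagens that were not called had log2 values from -0.65 to 0.95 in Mem ileum (27 genes), -0.84 to 0.91 in Mem+Sol ileum (20 genes), -0.41 to 0.79 in Mem lung (34 genes) and -1.10 to 0.24 in Mem+Sol lung (38 genes).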

How the data were processed

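RNA sequencing libraries of terminal ileum (16) and lung (14) were analysed from the raw counts per gene symbol that the authors deposited. Per the labels' protocols, poly(A) RNA was purified from total RNA of a section of ileum or the post-caval lobe. Per the submitters' processing notes, CASAVA and TopHat2 and the mm10 build were used. For the counting step the program, annotation and strand setting are not given in the sources used. The labels do not say that libraries came from separate animals, so p-values reflect the spread among the sequenced samples, which may be technical. No pair of libraries within a group was a duplicate.

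The members and gene lists were chosen with earlier results of these data known. Of 112 listed symbols outside the collagens 112 were matched, 5 by synonym. Genes were filtered with filterByExpr, scaled by trimmed mean of M-values and tested with edgeR 4.0.16 (robust quasi-likelihood test, R 4.3.3) with Benjamini-Hochberg adjustment over all genes of a comparison, at 0.05. The ileum model held genotype and sex (12 residual degrees of freedom), the lung model also batch (9), and the joint model sex within tissue and lung batch (21). CPM refer to the scaled library size. Kilobases are union exonic lengths from GENCODE (GRCm38), and promoters are from RefSeq. In each class the called members with the 2 smallest adjusted p in a tissue, and Col1a1, Col1a2, Col3a1, Col4a1 and Col4a2, were given library by library. For other genes up to 3 called members per list and direction were named by smallest adjusted p. The result of 1 gene that this rule named is not reported here. Col6a5, Col24a1 and Col6a3 in the ileum and other members given outside this rule were singled out after their values were seen. Alternatives were DESeq2 1.42.0, other scalings, no filter, no sex or batch term, single batches, only the 2 genotypes compared, a replicate block, thinned ileum counts and each library left out. Leaving out the 2 ileum libraries that stood apart and the test between lung batches were added after seeing the data. The test was tried on simulated counts with known changes. Those counts held no sex or batch effect and no outlying library, so the trial does not bear on these. With low totals in WT ileum, changes of genes with few counts there are the least precise.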

Additional observations from a re-analysis of the deposited data

Results flagged for a closer look

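In 3 of 75 gene and group pairs tested, 1 library lay far from the rest of its group. Col1a2 was at 539 CPM in ileum WT replicate 1, against 285 in the next library, and Col3a1 at 803 CPM in the same library, against 475. Col4a2 was at 169 CPM in ileum Mem+Sol replicate 5, below 455 in the next. Chance marks about 1 in 20 groups in this way. WT replicate 1 is the single female WT library of the ileum.

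The effect against WT differed between the tissues for 5 collagens in Mem and 19 in Mem+Sol, by the test of the difference itself in the joint model. The lung effect minus the ileum effect on the log2 scale in Mem was -1.20 for Col1a2, -1.44 for Col6a1, -1.42 for Col6a2, and -1.05 for Col12a1. It was -1.95 for Col17a1, which was not tested in the ileum for want of counts and lost this call after thinning of the ileum libraries (adjusted p = 0.312). In Mem+Sol it was -2.37 for Col1a1, -2.16 for Col1a2, -3.25 for Col24a1, -0.94 for Col27a1, -2.18 for Col3a1, -1.47 for Col5a1 and -2.12 for Col5a2 among fibrillar chains. It was -1.75 for Col4a1, -1.78 for Col4a2, -2.04 for Col6a1, -2.29 for Col6a2, -1.74 for Col6a3 and -2.89 for Col6a5 among type IV and type VI chains. It was -1.94 for Col8a1, -1.52 for Col12a1, -0.98 for Col16a1, -1.84 for Col15a1 and -1.85 for Col28a1 among the others. It was -2.42 for Col17a1, with the same limit (adjusted p = 0.0563 after thinning). The lung libraries of Mem+Sol held 2 batches with unlike values, and the ileum libraries 1 batch, so tissue and batch 3 cannot be told apart in levels, although each effect is taken within its tissue.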

How the results depend on the processing

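Ileum counts of called collagens kept their direction and stayed within 1.5 times of 10 (Mem) and 17 (Mem+Sol) under each alternative run, from 9 to 13 and 15 to 20, and from 7 to 14 and 15 to 20 with 1 library left out. The Mem+Sol against Mem count in the ileum was 0 in each. Of the called ileum genes 7 of 10 and 13 of 17 were called in each alternative.

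In the lung, for Mem against WT (4 called) the count was 0 without a batch term, 2 in batch 1 only and 0 in batch 2 only. With 1 library left out it ran from 1 to 6, with 1 without WT replicate 2, 3 or 5 and 2 without Mem replicate 2, 3, 4 or 5. For Mem+Sol against WT (0 called) it was 3 with DESeq2, 1 without a sex term, 1 with only the 2 genotypes compared and 17 in batch 2 only, and it ran from 0 to 6 with 1 library left out, the 6 being without Mem+Sol replicate 2. For Mem+Sol against Mem (3 called) it was 8 with DESeq2, 19 in batch 2 only and 0 without a sex term, with only the 2 genotypes compared, without a batch term or in batch 1 only. It ran from 0 (without Mem replicate 2 or 4 or Mem+Sol replicate 3) to 6 (without Mem+Sol replicate 2). The tissue difference for Mem (5 called) was 9 with DESeq2, 9 with total-count scaling and 13 without the 2 ileum libraries that stood apart. It ran from 1 (without ileum Mem replicate 2 or 4) to 11 (without ileum WT replicate 1). That for Mem+Sol (19) ran from 15 to 21, and Col6a5 lost its call there with no filter on low counts (adjusted p = 0.0745). After thinning, the ileum calls of Col15a1 in Mem (0.0584) and of Col5a1 (0.0694) and Col16a1 (0.0657) in Mem+Sol were lost. The cause of these shifts was not tested.

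Values near 0 turned sign. Col3a1 between the transgenic genotypes in the ileum was at log2 0.006 without a sex term and from -0.256 to 0.067 with 1 library left out. In the lung, Mem against WT, Col1a1 was at -0.095 in batch 1 only (-0.113 to 0.230 with 1 library left out), Col4a1 at 0.133 in batch 2 only (-0.194 to 0.089) and Col4a2 at 0.084 in batch 2 only (-0.198 to 0.036).

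With the replicate number as a replicate block the count of called collagens was 11 and 18 in the ileum and 5, 1 and 9 in the lung (Mem against WT, Mem+Sol against WT and Mem+Sol against Mem). The correlation of same-numbered libraries ran from -0.170 to 0.469 in the ileum (7 of 15 pairs above 0.1) and from -0.507 to 0.616 in the lung (4 of 13). It was taken around group means with sex and batch left in, so it cannot tell whether the numbers pair the samples. Under the block Col12a1 (adjusted p = 0.0655) and Col28a1 (0.0915) in Mem+Sol ileum and Col6a3 (0.0501) in Mem ileum were no longer called, nor were the tissue differences of Col12a1 in Mem (0.0622) and Col28a1 in Mem+Sol (0.133).

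Total-count scaling moved the median of all genes by 0.123 in ileum Mem against WT, where 77.2% instead of 62.1% of the called genes were higher, and by -0.103 for the tissue difference in Mem (30.7% instead of 43.2%). Over all genes, ileum Mem against WT gave 1205 calls, 1941 with DESeq2, 2574 without the 2 ileum libraries that stood apart and 646 after thinning, and lung Mem against WT gave 1503, 524 without a batch term and 5 in batch 2 only. With 1 library left out the first ran from 448 (without Mem replicate 2 or 4) to 2396 (without Mem replicate 1) and the second from 627 to 2006. Lung Mem+Sol against WT (134) ran from 10 to 500, lung Mem+Sol against Mem (355) from 30 to 648, the tissue difference in Mem (1388) from 808 to 2779 and that in Mem+Sol (3053) from 2043 to 3731. The shares of all genes printed beside the collagen counts move with these.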

Other observations

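Col6a5 had a wide spread in the ileum of Mem+Sol. The 3 female libraries (replicates 2, 3 and 5) were at 179, 227 and 101 CPM and the 3 male libraries (replicates 1, 4 and 6) at 19.8, 43.2 and 15.7 CPM, so the sexes did not overlap. In Mem the 2 female libraries were at 62.0 and 77.2 CPM and the 3 male libraries at 10.8, 119 and 120 CPM, where they did. These libraries were singled out after their values were seen, and whether the genotype effect differs by sex was not tested.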
